A study of Mus musculus with 8 samples.

Results

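The genes described here belong to the red blood cell lineage and were looked up on arrays made to study midbrain dopaminergic (mdDA) neurons. They are the embryonic globin genes *Hbb-y*, *Hbb-bh1* and *Hba-x*, the heme synthesis gene *Alas2*, the membrane transporter gene *Slc4a1*, the erythropoietin receptor gene *Epor* and the transcription factor gene *Klf1*. They were chosen by name, with earlier results of these data known, and not by a threshold on their values. They are 7 of the 19938 genes that have a probe set with a single gene symbol. Each of the 7 has exactly 1 such probe set, and no filter on low values was applied, so all 7 were tested.

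The study profiled 4 groups of samples on Affymetrix Mouse Gene 1.0 ST arrays, with 2 arrays in each group and 8 arrays in all. The sorted E14.5 and sorted E13.5 groups are GFP-expressing mdDA neurons taken by fluorescence-activated cell sorting from the ventral midbrain of *Pitx3*GFP/+ embryos (C57BL/6 x 129/Ola, mixed), in which GFP marks cells that use the *Pitx3* locus. The domain pools (mdDA and lateral) were cut by laser from fixed and immunostained midbrain sections of E12.5 *BAT-gal* embryos (B6D2F1, mixed), which carry a lacZ reporter of WNT/b-catenin signaling. The mdDA domain was outlined by b-GAL and PITX3 staining, the lateral domain lay at the alar-basal boundary and was free of both, and each pool came from 5 embryos. The 2 arrays of a group are technical replicates, so an SD or a p-value given here measures the spread between arrays and not between embryos. Sorted and dissected samples differ in stage, strain, genotype and isolation together, and these cannot be told apart.

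Red blood cells of the midgestation mouse embryo come in successive waves. Primitive erythroid cells form in the yolk sac, enter the circulation as nucleated cells and carry hemoglobin that includes embryonic globin chains. Definitive cells from the fetal liver carry adult chains and gradually replace the primitive cells. Blood vessels grow into the midbrain over the same period. In RNA of whole tissue, fewer cells of a type and less RNA per cell cannot be told apart.

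The globin genes lie in the beta cluster on chromosome 7 (*Hbb-y* at 103851754-103853207 and *Hbb-bh1* at 103841638-103843162, 8591 bases apart) and in the alpha cluster on chromosome 11 (*Hba-x* at 32276600-32278116). *Alas2* lies on chromosome X (150547417-150570622), *Slc4a1* on chromosome 11 (102348820-102365281), *Epor* on chromosome 9 (21958897-21963576) and *Klf1* on chromosome 8 (84901982-84905291). These positions are those of RefSeq on GRCm38.p6. The sequences of 3 promoters are shown because these genes moved together between sorted and dissected samples, each as the 250 bases before the annotated start on the strand of the gene. Capitals mark matches on either strand to 4 short motifs: GATAA, bound by GATA factors, CACCC, bound by KLF1 and its relatives, CCAAT, bound by NF-Y, and TATAA, the core of the TATA box. The windows are chr7:103853208-103853457 (minus strand) for *Hbb-y*, chr11:32276350-32276599 (plus strand) for *Hba-x* and chrX:150547167-150547416 (plus strand) for *Alas2*.
Hbb-y: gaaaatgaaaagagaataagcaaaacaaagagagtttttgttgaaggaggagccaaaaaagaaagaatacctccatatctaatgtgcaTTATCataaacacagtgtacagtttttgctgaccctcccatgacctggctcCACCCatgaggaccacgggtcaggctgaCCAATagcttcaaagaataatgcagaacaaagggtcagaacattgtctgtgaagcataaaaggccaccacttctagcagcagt
Hba-x: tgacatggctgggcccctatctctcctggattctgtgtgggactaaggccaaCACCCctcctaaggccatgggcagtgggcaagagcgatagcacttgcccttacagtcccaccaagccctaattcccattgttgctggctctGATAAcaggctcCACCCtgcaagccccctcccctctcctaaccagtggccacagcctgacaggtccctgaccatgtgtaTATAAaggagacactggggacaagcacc
Alas2: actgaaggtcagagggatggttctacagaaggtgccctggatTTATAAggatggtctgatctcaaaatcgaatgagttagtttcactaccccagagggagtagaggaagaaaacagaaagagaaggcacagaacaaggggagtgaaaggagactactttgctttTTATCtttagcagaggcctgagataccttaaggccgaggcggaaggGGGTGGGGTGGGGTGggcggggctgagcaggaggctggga

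Windows were at hand for 5 of the 7 genes, namely *Hbb-y*, *Hba-x*, *Alas2*, *Epor* and *Klf1*. All 5 held at least 1 GATAA and at least 1 CACCC. Among 32851 promoter windows of the same length, 22.6% held GATAA, 52.0% held CACCC and 10.1% held both. In *Hba-x* a GATAA stood 107 to 103 bases before the start, between CACCC matches at 198 to 194 and at 95 to 91 bases, and a TATAA stood 28 to 24 bases before the start. *Hbb-y* had GATAA (read on the other strand) at 162 to 158, CACCC at 111 to 107 and CCAAT at 83 to 79 bases before the start, and no TATAA in this window. *Alas2* had 3 CACCC matches on the other strand between 40 and 26 bases before the start, and its TATAA matches on the 2 strands overlapped. CCAAT was held by 33.8% and TATAA by 22.8% of all windows. The letters are a description of the sequence, since no factor binding was measured on these arrays.

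The embryonic globin genes were lower in sorted neurons than in dissected tissue. *Hbb-y*, which encodes the embryonic epsilon-type beta chain, was 114-fold lower in sorted neurons than in the mdDA domain, and *Hba-x*, which encodes the embryonic zeta chain of the alpha family, was 52.8-fold lower. *Hbb-bh1*, the gene of a further embryonic beta-type chain, was 5.10-fold lower. All values are log2 levels as deposited, and a difference is the sorted mean over both stages minus the mean of a dissected domain unless another one is named. A gene is called where the limma test, adjusted by Benjamini-Hochberg over all 35556 probe sets, passed a false discovery rate of 10%.

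*Hbb-y* had log2 levels of 3.83 and 3.83 in sorted E14.5 neurons, 3.76 and 3.96 in sorted E13.5 neurons, 10.70 and 10.67 on mdDA domain arrays, and 10.28 and 10.47 on lateral domain arrays. The 4 sorted arrays lay together below the median of their arrays (4.39), and no sorted array overlapped a dissected one. The difference was -6.84 from the mdDA domain (standard error, SE, 0.12, limma adjusted p = 1.37e-05) and -6.53 from the lateral domain (SE 0.12, limma adjusted p = 9.17e-06). The order of the levels was mdDA domain, lateral domain, sorted E13.5, sorted E14.5. Only the step from the lateral domain to the sorted E13.5 neurons passed the test over the 8 arrays, and the differences between the first and between the last 2 groups of the order did not.

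*Hba-x* had log2 levels of 4.73 and 4.82 in sorted E14.5 neurons, 4.43 and 5.03 in sorted E13.5 neurons, 10.44 and 10.51 on mdDA domain arrays, and 10.46 and 10.37 on lateral domain arrays. The sorted arrays lay more than 5 log2 units below the dissected ones, and the E13.5 arrays differed from each other more than those of any other group for this gene. The difference was -5.72 from the mdDA domain (SE 0.18, limma adjusted p = 2.12e-04) and -5.66 from the lateral domain (50.7-fold lower, limma adjusted p = 4.25e-05). In contrast to *Hbb-y*, all 4 sorted arrays were above the array median for *Hba-x*. In the order of its group means (mdDA domain, lateral domain, sorted E14.5, sorted E13.5) only the step from the lateral domain to the sorted E14.5 neurons passed.

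*Hbb-bh1* had log2 levels of 3.48 and 3.54 in sorted E14.5 neurons, 3.38 and 3.45 in sorted E13.5 neurons, 5.79 and 5.83 on mdDA domain arrays, and 5.68 and 6.06 on lateral domain arrays. The sorted arrays were again below the array median, and none overlapped the dissected arrays. The difference was -2.35 from the mdDA domain (SE 0.13, limma adjusted p = 9.42e-04) and -2.41 from the lateral domain (5.32-fold lower, limma adjusted p = 1.88e-04). The lateral domain stood highest, followed by the mdDA domain, sorted E14.5 and sorted E13.5 neurons, and only the step from the mdDA domain to the sorted E14.5 neurons passed. No detection level was set for these arrays, so for genes below the array median the size of a fold is uncertain. Globin genes are also related in sequence, and the deposited values do not show how far probes of a globin gene bind transcripts of its relatives.

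**Figure D1:**
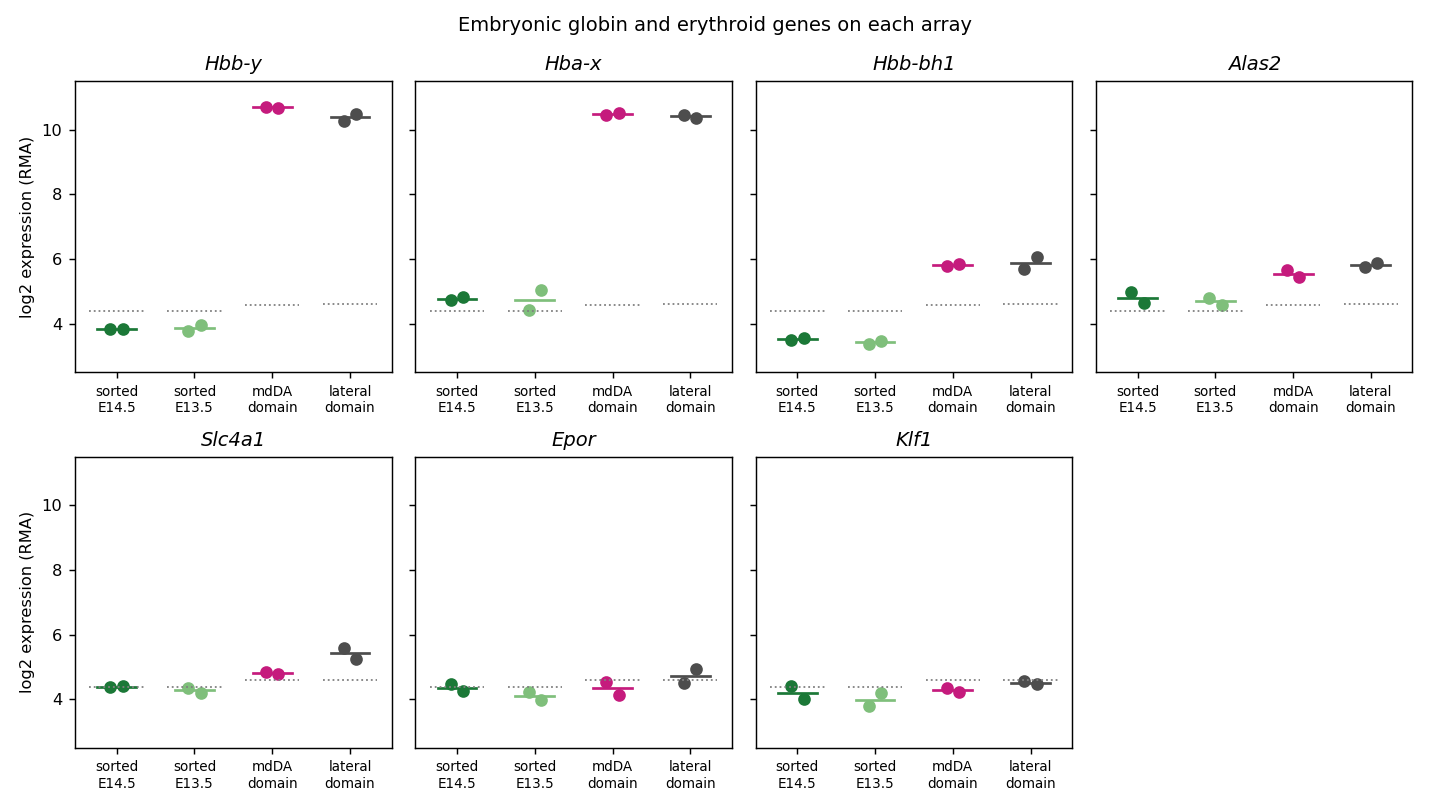
Log2 level (y axis, RMA) of each of the 7 genes on every array, by group (x axis), with the group mean as a solid line and the mean of the array medians as a dotted line. *Hbb-y* and *Hba-x* lie above 10 in both dissected domains and at or below 5.03 on every sorted array, while *Epor* and *Klf1* stay near the dotted line in all 4 groups.

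The heme synthesis and membrane genes showed the same direction with smaller differences. *Alas2* encodes the erythroid form of 5-aminolevulinate synthase, which starts heme synthesis. It had log2 levels of 4.97 and 4.63 in sorted E14.5 neurons, 4.80 and 4.56 in sorted E13.5 neurons, 5.64 and 5.45 on mdDA domain arrays, and 5.76 and 5.87 on lateral domain arrays. Sorted and dissected arrays did not overlap, and *Alas2* was 1.75-fold lower in sorted neurons than in the mdDA domain (difference -0.80, SE 0.15, limma adjusted p = 0.0221) and 2.10-fold lower than in the lateral domain (-1.07, limma adjusted p = 0.00468). The call against the mdDA domain was lost without mdDA domain replicate 1 (difference -0.71, limma adjusted p = 0.142, 0.00769 to 0.142 over the 16 alternatives). As for *Hbb-bh1*, only the step from the mdDA domain to the sorted E14.5 neurons passed among neighbours in the order of the groups.

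*Slc4a1*, the gene of the chloride and bicarbonate exchanger of the red cell membrane known as band 3, had log2 levels of 4.38 and 4.40 in sorted E14.5 neurons, 4.36 and 4.18 in sorted E13.5 neurons, 4.84 and 4.78 on mdDA domain arrays, and 5.59 and 5.26 on lateral domain arrays. Its groups formed a ladder without overlap between sorted neurons, mdDA domain and lateral domain. The gene was 2.13-fold lower in sorted neurons than in the lateral domain (difference -1.09, SE 0.13, limma adjusted p = 0.00280). Against the mdDA domain it was 1.39-fold lower (-0.48, SE 0.13, limma adjusted p = 0.0661), and this call held in only 7 of 16 alternatives (adjusted p 0.0415 to 0.267). It was lost after repeated quantile normalization (-0.28, adjusted p = 0.250), and it was also lost when any of 5 arrays was left out, with -0.43 without sorted E13.5 replicate 2 (adjusted p = 0.136), -0.47 without sorted E14.5 replicate 1 (adjusted p = 0.114), -0.48 without sorted E14.5 replicate 2 (adjusted p = 0.106), -0.45 without mdDA domain replicate 1 (adjusted p = 0.267) and -0.51 without mdDA domain replicate 2 (adjusted p = 0.190, all from limma).

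The genes of the receptor and the transcription factor did not pass the test over all probe sets in either comparison. *Epor*, whose product receives the erythropoietin signal in erythroid progenitors, had log2 levels of 4.46 and 4.26 in sorted E14.5 neurons, 4.22 and 3.96 in sorted E13.5 neurons, 4.55 and 4.14 on mdDA domain arrays, and 4.51 and 4.93 on lateral domain arrays. Sorted and mdDA arrays overlapped, and the difference was -0.12 (SE 0.18, limma adjusted p = 0.721), with its sign turned in 4 of 15 alternatives. Against the lateral domain the arrays did not overlap, but the difference of -0.49 did not pass (SE 0.18, limma adjusted p = 0.122, 0.0742 to 0.519 over 15 alternatives). It passed in 1 of them, in which only probe sets with a single symbol were tested (adjusted p = 0.0742).

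*Klf1*, the gene of the zinc finger factor that activates adult beta-globin and other erythroid genes, had log2 levels of 4.40 and 4.01 in sorted E14.5 neurons, 3.79 and 4.18 in sorted E13.5 neurons, 4.35 and 4.22 on mdDA domain arrays, and 4.55 and 4.48 on lateral domain arrays. Every dissected array and 3 of the 4 sorted arrays were below their array median for *Klf1*. The difference was -0.19 from the mdDA domain (SE 0.17, limma adjusted p = 0.502) and -0.42 from the lateral domain (SE 0.17, limma adjusted p = 0.138, 0.0824 to 0.467 over 15 alternatives). Against the lateral domain *Klf1* passed when only probe sets with a single symbol were tested (adjusted p = 0.0912), without sorted E13.5 replicate 2 (-0.52, adjusted p = 0.0896) and without sorted E14.5 replicate 1 (-0.52, adjusted p = 0.0824, all from limma). Repeating the quantile normalization or centring the arrays turned the sign of the difference from the mdDA domain for both *Epor* and *Klf1*. No step between neighbours in the order of the 4 group means passed the test for *Epor*, *Klf1* or *Slc4a1*.

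Counted together, 5 of the 7 genes were lower and none was higher in sorted neurons, set against the mdDA domain, where 9.844% of all probe sets were lower and 8.527% higher. The median difference of the 7 genes was -0.80, against -0.08 over all probe sets. Against the lateral domain the same 5 were lower and none was higher, with 14.46% of all probe sets lower and 11.41% higher, and the medians were -1.09 and -0.09. The arrays of sorted neurons lay below those of the mdDA domain without overlap for 5 of the 7 genes, where 22.86% of all probe sets did so and 37.33% did not overlap in either direction. They lay below those of the lateral domain without overlap for 7 of the 7 genes, with 26.23% and 42.3% of all probe sets. Both comparisons share the sorted arrays, and the genes were chosen with earlier results of these data known, so these counts are a description of them.

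Among the 19938 genes with a single symbol, the mean of the 4 dissected arrays minus the mean of the 4 sorted arrays was largest for *Hbb-y* (6.68) and next for *Hba-x* (5.69). *Hbb-bh1* ranked 22 (2.38), *Alas2* 360 (0.94) and *Slc4a1* 547 (0.78), while *Klf1* ranked 3366 and *Epor* 3403. Array medians were 4.39 on sorted arrays and 4.57 to 4.60 on dissected arrays, and whether all 8 arrays were normalized together is not given in the sources used here. Centring every array on its median moved the median difference of all probe sets from -0.08 to 0.12 against the mdDA domain and from -0.09 to 0.12 against the lateral domain. Over all 16 alternatives the difference from the mdDA domain stayed between -6.89 and -6.64 for *Hbb-y*, between -5.87 and -5.53 for *Hba-x* and between -2.40 and -2.15 for *Hbb-bh1*, and each kept its call.

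**Figure D2:**
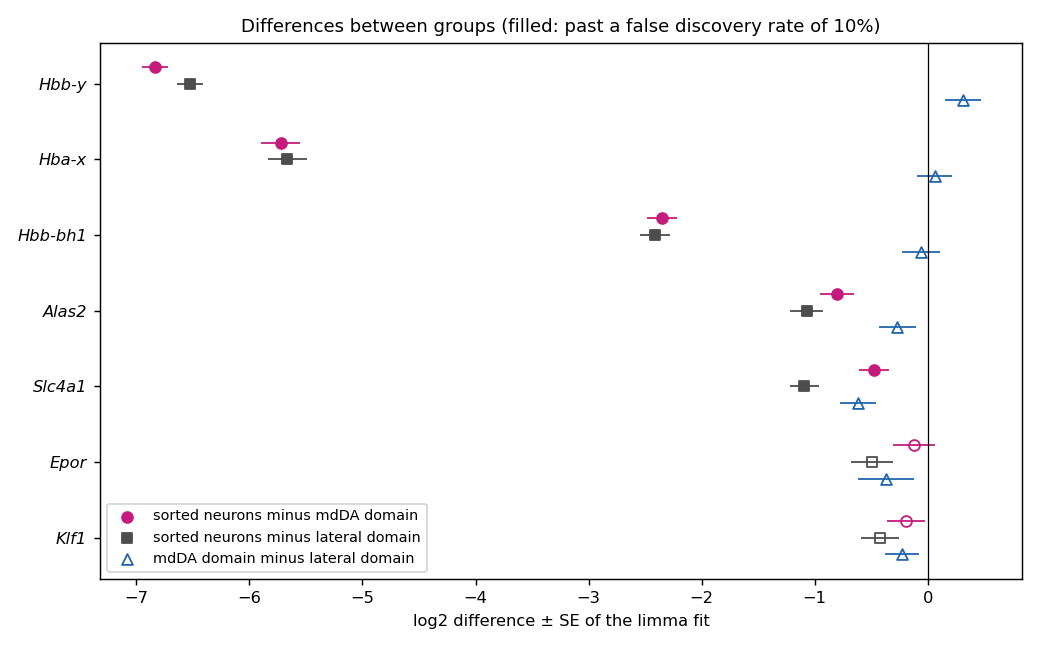
Log2 difference with its limma standard error (x axis) for each gene (y axis) between sorted neurons and the mdDA domain (circles), sorted neurons and the lateral domain (squares) and the mdDA and lateral domains (triangles). Filled symbols passed a false discovery rate of 10%: 5 circles, 5 squares and none of the triangles, with *Hbb-y* at -6.84 and -6.53.

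Between the dissected domains no difference of an embryonic globin gene passed the test. None of the 7 genes was called between the mdDA domain and the lateral domain in limma, and 1 of them, *Slc4a1*, had an unadjusted p under 0.05. Of all probe sets 1.522% were higher and 1.097% lower in the mdDA domain. *Hba-x* (difference 0.06, adjusted p = 0.926) and *Hbb-bh1* (-0.06, adjusted p = 0.934) had overlapping arrays. *Hbb-y* was 0.31 above the lateral domain with no overlap of the arrays and did not pass (SE 0.16, limma adjusted p = 0.513).

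The differences of the other 4 genes were below 0 and did not pass either. *Slc4a1* had a difference of -0.62 between the mdDA domain and the lateral domain (SE 0.16, limma adjusted p = 0.228) and no overlap of the arrays. It passed when only probe sets with a single symbol were tested (adjusted p = 0.0271), and adjusted p ranged up to 0.495 over the 12 alternatives. *Alas2* differed by -0.27 (adjusted p = 0.593), *Epor* by -0.37 (adjusted p = 0.628) and *Klf1* by -0.23 (adjusted p = 0.613, all from limma). *Alas2* and *Klf1* had no overlap of the arrays and *Epor* did, so that 4 of the 7 genes had arrays that did not overlap between the domains, where 43.75% of all probe sets did not overlap. With 2 technical arrays a domain, a gene that did not pass is not shown to be equal.

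The stage of the sorted neurons made no difference that passed. None of the 7 genes was called between E14.5 and E13.5 neurons in limma, none had an unadjusted p under 0.05, and 0% of all probe sets were called in either direction. The differences, E14.5 minus E13.5, were -0.03 for *Hbb-y*, 0.05 for *Hba-x*, 0.10 for *Hbb-bh1*, 0.12 for *Alas2*, 0.12 for *Slc4a1*, 0.27 for *Epor* and 0.22 for *Klf1*. The arrays of the stages did not overlap for *Hbb-bh1*, *Slc4a1* and *Epor*, each of which had its higher arrays at E14.5. These are 3 of 7 genes, where 35.99% of all probe sets did not overlap between the stages, and nothing is read from this count. The largest standard error was 0.24, for *Hba-x*.

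The adult globin genes could be followed only as families. The genes of the adult alpha-type and beta-type chains are so alike that 4 probe sets carry several of their symbols. Of these, 2 are for the alpha type and 2 for the beta type, so that no single gene is named. Which wave of red cells their RNA came from was not tested. The alpha-type probe sets had log2 levels of 6.95 and 7.54 and of 6.88 and 7.52 in sorted E14.5 neurons, and of 7.99 and 8.04 in sorted E13.5 neurons on both. They had 11.13 and 10.99 on both in the mdDA domain, and 11.28 and 11.30 and 11.36 and 11.36 in the lateral domain. All sorted arrays lay below all dissected arrays, and the sorted arrays lay above their array median.

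The alpha-type probe sets were lower in sorted neurons by 3.43 and 3.45 than in the mdDA domain on the log2 scale (adjusted p = 7.49e-04 and 8.22e-04), and the beta-type ones by 1.66 and 1.30 (adjusted p = 0.00292 and 0.00290, all from limma). Against the lateral domain the differences were -3.66 and -3.75 for the alpha type and -2.75 and -2.50 for the beta type, and all 4 were called.

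The beta-type probe sets also separated the dissected domains. They had log2 levels of 10.07 and 9.95 and of 9.85 and 9.71 in the mdDA domain, against 11.04 and 11.15 and 10.97 and 10.99 in the lateral domain. The mdDA arrays lay about 1 log2 unit below the lateral arrays on both, with differences of -1.09 (SE 0.16, adjusted p = 0.0834) and -1.20 (SE 0.15, adjusted p = 0.0718, both from limma). Both calls were lost when any of the 4 arrays was left out (differences of -1.03 to -1.15 and of -1.13 to -1.27). Such a fit has 1 array in a domain and no block, so it cannot decide whether the calls hold. The first probe set also missed the threshold after repeated quantile normalization (-0.98, limma adjusted p = 0.122). The alpha-type probe sets had differences of -0.23 and -0.30 that did not pass.

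Within the sorted neurons the adult-type probe sets had lower levels at E14.5 with no overlap between the stages. The differences, E14.5 minus E13.5, were -0.77 and -0.81 for the alpha type and -0.67 and -0.39 for the beta type. Each had an unadjusted p under 0.05, and none passed (adjusted p 0.744 to 0.822 from limma).

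**Figure D3:**
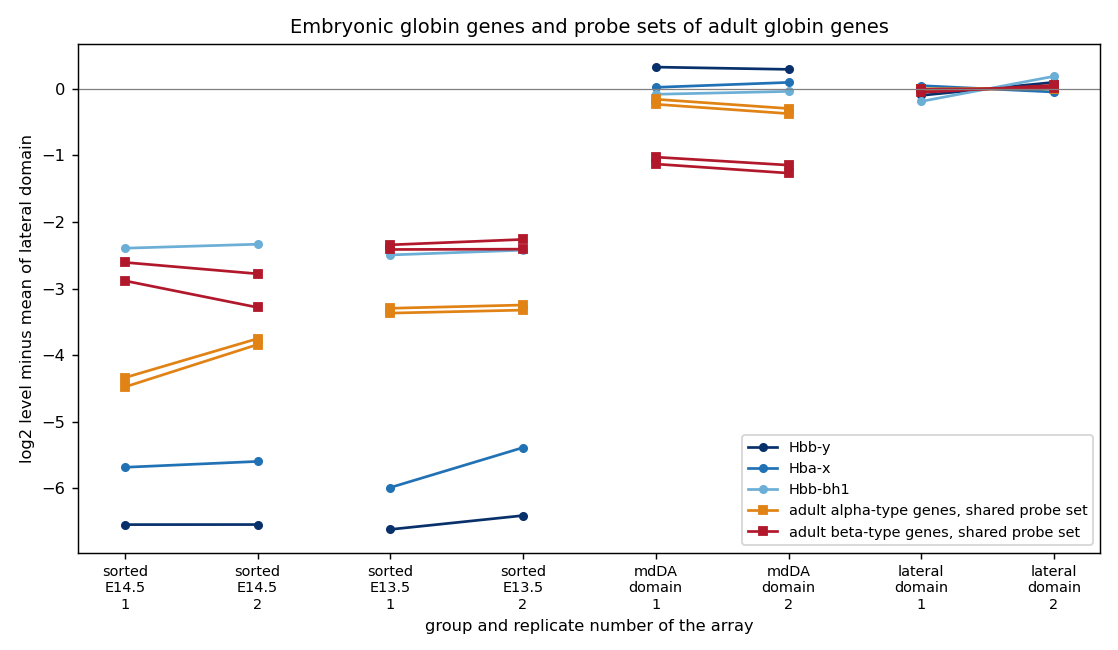
Log2 level minus the mean of the lateral domain (y axis) on each array (x axis, group and replicate number) for *Hbb-y*, *Hba-x* and *Hbb-bh1* (blue circles) and for the probe sets shared by adult alpha-type (orange squares) and adult beta-type globin genes (red squares), with a line joining the arrays of a group. *Hbb-y* and *Hba-x* lie more than 5 units below 0 on all sorted arrays, the alpha-type probe sets less far below 0 on the same arrays, and the beta-type probe sets lie near -1 in the mdDA domain.

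The wider erythroid program was set beside the 7 genes through 7 lists of related genes, of which 77 genes could be measured on probe sets with a single symbol. Of these 77, 7 were higher and 9 lower in sorted neurons than in the mdDA domain, where 8.527% of all probe sets were higher and 9.844% lower. Against the lateral domain 12 were higher and 16 lower, with 11.41% of all probe sets higher and 14.46% lower. The counts of the single lists below are to be read beside these shares. The median difference of the 77 genes was -0.05 and -0.10, close to the medians over all probe sets (-0.08 and -0.09). Between the domains 1 of the 77 was called and 14 had an unadjusted p under 0.05, and between the stages none was called in limma and 6 had an unadjusted p under 0.05. Many single calls in the lists and among the markers of other cells depended on the setting: of 100 such calls (named mdDA and lateral domain markers included), 45 held in every alternative, 55 were lost in at least 1 and 13 in more than 50% of them, and none changed sign. These 13 were *Fth1*, *Add2*, *Epb42*, *Lmo2*, *Sox6*, *Tspan33*, *Flt1*, *Pecam1* and *Hes1* against the mdDA domain and *Tfrc*, *Bcl2l1*, *Nxpe2* and *Flt1* against the lateral domain.

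Among the 3 other globin genes with a probe set of their own, *Hbb-bh2* was lower in sorted neurons than in the mdDA domain (3.45 against 3.92, difference -0.46, limma adjusted p = 0.0452). It lay below the array median in every group. *Hbq1b*, a theta-type gene of the alpha cluster, had 4.52 in sorted neurons and 4.57 in the mdDA domain and was not called. Of 7 measured heme synthesis genes other than *Alas2*, none was called against the mdDA domain in limma and none had an unadjusted p under 0.05. *Fech*, the gene of ferrochelatase, which inserts the iron into heme, was lower than in the lateral domain by 0.47 (limma adjusted p = 0.0291). *Alas1*, the form of the first enzyme found in all tissues, had 5.68 in sorted neurons, 6.03 in mdDA domain tissue and 6.00 in lateral domain tissue, and *Alad*, the next enzyme, had 6.32, 6.22 and 6.22 in the same order. Neither was called.

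Genes of iron uptake and handling moved both ways. Of 10 measured, 3 were higher and 1 lower in sorted neurons than in the mdDA domain, and 3 were higher and 3 lower than in the lateral domain. The ferritin genes *Ftl1* (differences 0.69 and 1.002 from the mdDA and lateral domains) and *Fth1* (0.43 and 0.82), whose products store iron in all cells, were higher in sorted neurons in both comparisons, the call of *Fth1* against the mdDA domain being lost in 11 of 16 alternatives. *Slc25a38*, a mitochondrial glycine carrier gene, was higher than in the mdDA domain (0.70), and *Tfrc*, the transferrin receptor gene, was called higher than in the lateral domain (0.38, lost in 11 of 16 alternatives). The iron exporter gene *Slc40a1* was lower in both (-0.75 and -0.53). The gene of the mitochondrial iron importer mitoferrin 1, *Slc25a37*, was lower than in the lateral domain (-0.995, limma adjusted p = 0.00976), as was the ferrireductase gene *Steap3* (-0.55).

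The red cell membrane list held 15 measured genes besides *Slc4a1*, of which 2 were higher and 2 lower in sorted neurons than in the mdDA domain, and 4 were higher and 4 lower than in the lateral domain. The higher ones were the membrane skeleton genes *Dmtn* (0.43 and 1.197), *Add2* (0.44, lost in 11 of 16 alternatives, and 0.54) and *Ank1* (0.40 against the lateral domain), which are also expressed in neurons, and *Cd47* (0.89 against the lateral domain), the gene of a widely expressed surface protein. The glucose transporter gene *Slc2a1*, known in both red cells and brain endothelium, was lower in both comparisons (-1.04 and -1.18). *Epb42* was called lower than in the mdDA domain (-0.52, lost in 11 of 15 alternatives), and *Gypc*, *Rhd* and *Kel*, genes of blood group proteins, were lower than in the lateral domain (-0.57, -0.49 and -0.40). The means of *Gypc* (3.95 against 4.52), *Rhd* (3.35 against 3.83) and *Kel* (3.13 against 3.53) lay below the array medians in both groups. The calls of *Rhd* and *Kel* were lost in 3 and 4 of 15 alternatives.

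All 14 erythroid transcription factor genes besides *Klf1* were measured, and none was higher in sorted neurons in either comparison. *Klf3* was lower than in the mdDA domain (-0.43, lost in 4 of 16 alternatives). *Lmo2* (-0.56, lost in 12 of 16, adjusted p up to 0.325) and *Sox6* (-0.44, lost in 13 of 16, adjusted p up to 0.356) were also called there. Against the lateral domain 6 were lower, and *Gata2* (-1.84), *Zfpm1* (-1.32), *Tal1* (-1.25) and *Klf3* (-0.73) had the largest differences. *Gata2* was also the 1 gene called between the domains, with 5.14 and 4.94 in the mdDA domain against 7.14 and 6.59 in the lateral domain (difference -1.82, limma adjusted p = 0.0465). Without lateral domain replicate 1, mdDA domain replicate 1 or mdDA domain replicate 2 it no longer passed (differences -1.55, -1.93 and -1.72). These fits have 1 array in a domain and no block, so they cannot decide whether the call holds. *Gata2*, *Tal1* and *Zfpm1* are also known from GABAergic neurons of the midbrain, and a list of 7 markers of the lateral domain, which joins alar plate genes (*Pax3*, *Dbx1*) with genes of GABAergic neurons, was lower in the mdDA domain for 7 of 7 genes (*Tal2* by 4.97, *Dbx1* by 4.19 and *Gata3* by 3.98 on the log2 scale). In sorted neurons 4 of these 7 (*Gata3*, *Gad1*, *Gad2* and *Slc32a1*) were higher than in the mdDA domain. Against the lateral domain 6 of the 7 were lower in sorted neurons and 1 was higher (median difference -3.10). The part of the cells marked by this list in the values of *Gata2*, *Tal1* and *Zfpm1* was not tested. *Gata1*, the factor most tied to red cells, which was singled out after its values were seen, had 4.04 in sorted neurons, 4.29 in mdDA domain tissue and 4.16 in lateral domain tissue, below the array medians, and was not called.

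Of 18 other erythroid genes measured, 1 was higher and 1 lower in sorted neurons than in the mdDA domain, and 3 were higher and 2 lower than in the lateral domain. *Bpgm*, the gene of bisphosphoglycerate mutase, which sets the oxygen affinity of hemoglobin, was higher in both (1.26 and 1.22, adjusted p = 0.0168 and 0.0103 from limma), opposite in direction to the globins. *Mgst3* (1.09) and *Bnip3l* (0.58), the gene of a mitophagy receptor, were higher than in the lateral domain. *Tspan33* was lower than in the lateral domain (-0.53), and its call against the mdDA domain (-0.41) was lost in 12 of 15 alternatives (adjusted p 0.0604 to 0.379). *Nxpe2* was called lower than in the lateral domain (-0.49, lost in 8 of 15).

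The erythropoietin pathway list held 10 measured genes besides *Epor*. *Kit*, the receptor of stem cell factor, was higher in sorted neurons than in either domain (0.85 and 0.86), and its ligand gene *Kitl* was lower than in the mdDA domain (-1.18). *Bcl2l1*, a survival gene downstream of the receptor, was called higher than in the lateral domain (0.57, lost in 11 of 16 alternatives). No gene of this list was lower than in the lateral domain.

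Markers of other cell types of blood and vessels were read in the same way. Of 12 endothelial markers, 8 were lower in sorted neurons than in the mdDA domain and 6 were lower than in the lateral domain, and none was higher (median differences -0.66 and -0.55). *Emcn* (-1.43 and -1.17) and *Cdh5* (-1.05 and -1.01) were lower in both, and *Ramp2* was lower than in the mdDA domain (-1.16). The mean log2 level of the list was 3.99 to 4.13 on sorted arrays, 4.75 to 4.80 on mdDA arrays and 4.61 to 4.68 on lateral arrays. Of 6 pericyte markers, *Rgs5*, *Abcc9* and *Pdgfrb* were called lower in both comparisons. Against the lateral domain the calls of *Rgs5* and *Abcc9* were each lost in 3 of 16 alternatives. *Cspg4*, *Kcnj8* and *Anpep* were not called, and *Anpep* had differences above 0 (0.07 and 0.18). The list means were 3.89 to 4.24 on sorted arrays, 4.61 to 4.64 on mdDA arrays and 4.48 to 4.51 on lateral arrays. Most vessel markers thus moved in the same direction as the embryonic globin genes, and their part in the result was not tested.

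Few markers of other blood cells passed the test. Of 12 microglia and macrophage markers none was called against the mdDA domain in limma (3 had an unadjusted p under 0.05) and *Cd68* was lower than in the lateral domain (-0.61), with list means of 4.04 to 4.43 on sorted arrays, 4.34 to 4.39 on mdDA arrays and 4.30 to 4.36 on lateral arrays. *Cx3cr1* had 5.19 in sorted neurons, 5.68 in mdDA domain tissue and 5.54 in lateral domain tissue, and *C1qb* had 5.27, 5.03 and 5.15 in the same order. The sorted mean of *C1qb* joined spread arrays, with 6.715 and 5.248 at E14.5 and 4.333 and 4.769 at E13.5. Of the 12 microglia and macrophage markers, 11 had a difference above 0 in E14.5 minus E13.5. None was called between the stages, and 2 had an unadjusted p under 0.05 in limma. None of the 5 measured megakaryocyte and platelet markers was called in limma in any comparison, and none had an unadjusted p under 0.05. Their list means were 3.70 to 3.81 on sorted arrays, 3.89 to 3.94 on mdDA arrays and 3.88 to 3.95 on lateral arrays.

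The labels of the samples were set beside neural markers. All 9 mdDA neuron markers were higher in sorted neurons than in the lateral domain. Of the 9, 8 were higher in mdDA domain tissue than in lateral domain tissue (*Th* 9.20 against 5.34). Against the mdDA domain 5 of the 9 were called higher in sorted neurons and none lower. *Pitx3* is among the 9, and the samples were themselves chosen by the *Pitx3* reporter or by PITX3 staining. All 8 neural progenitor markers were called lower in sorted neurons than in the mdDA domain (median difference -0.95), with *Nes* at -3.66. The call of *Hes1* was lost in 11 of 16 alternatives and that of *Fabp7* in 5 of 16 (differences of *Fabp7* -1.05 to -0.08). Against the lateral domain 7 of the 8 were lower and none was higher (median difference -1.94). Progenitor markers therefore differed between sorted and dissected samples in the same direction as the globins, and the part of cell type makeup in the result was not tested.

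**Figure D4:**
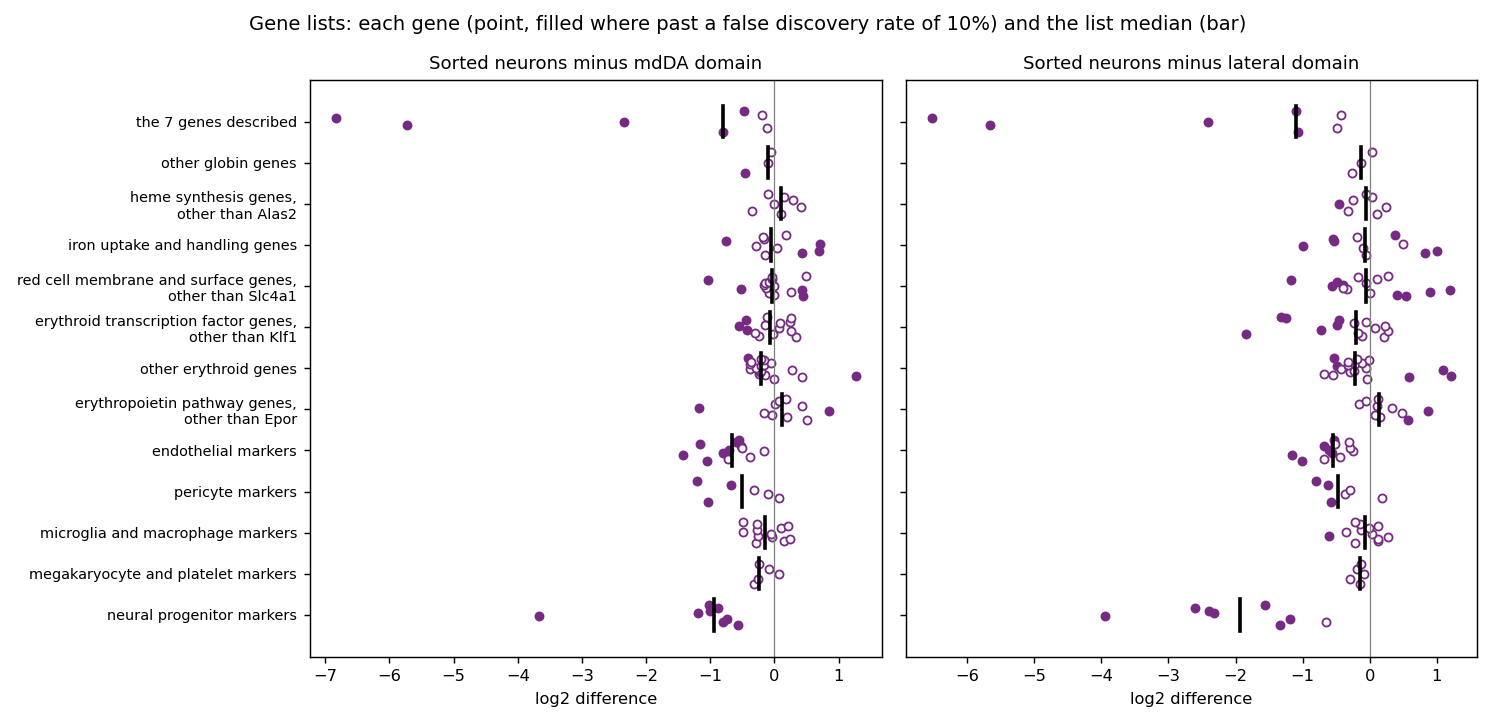
Log2 difference (x axis) of each measured gene in 13 lists (y axis) between sorted neurons and the mdDA domain (left) and sorted neurons and the lateral domain (right), filled where the gene passed a false discovery rate of 10%, with the list median as a bar. *Hbb-y* and *Hba-x* stand alone below -5, the medians of the 7 erythroid lists lie between -0.23 and 0.14, and those of the endothelial markers are -0.66 and -0.55.

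Genes with a profile most like that of the embryonic globins were sought by Pearson correlation over the 8 arrays with the mean of the centred *Hbb-y*, *Hba-x* and *Hbb-bh1* values. Among 4856 genes with a range of at least 1 log2 unit, the 10 most alike were *Fn1* (r = 0.994), *Sash1* (0.993), *Emx2* (0.993), *Xist* (0.992), *Nr2f2* (0.989), *Nes* (0.988), *Srsy* (0.984), *4833422C13Rik* (0.984), *Myo10* (0.984) and *Igfbpl1* (0.984). Of the 4 genes that did not define the profile, *Alas2* had r = 0.941, *Slc4a1* 0.839, *Klf1* 0.648 and *Epor* 0.540. The 8 arrays form a sorted and a dissected cluster, so that these values describe the step between the clusters and no p is given.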

How the data were processed

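Gene expression was measured on 8 Affymetrix Mouse Gene 1.0 ST arrays (sorted E14.5, sorted E13.5, mdDA domain and lateral domain, 2 technical arrays each). The deposited values are log2 signals per probe set, which the authors made with RMA and sketch-quantile normalization in Expression Console 1.2. No counts exist for arrays, and the number of arrays limits the precision. RNA of the dissected domains came from fixed tissue and was amplified before labelling.

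Probe sets were named by the symbols of the array annotation: 21789 of 35556 carry 1 symbol, 1621 several and 12146 none. Genes took their probe set of highest mean, and probe sets with several symbols named no gene. Differences were tested with limma 3.58.1 (R 4.3.3), adjusted over all 35556 probe sets by Benjamini-Hochberg at a false discovery rate of 10%. The mdDA and lateral domains were compared over 4 arrays with the replicate number as a block. The study's methods name a paired limma test but do not state what pairs the arrays, so this block was a choice made here. Sorted neurons (the mean of both stages) were compared with each domain in a fit of the 4 group means over 8 arrays, and the E14.5 arrays with the E13.5 arrays in a fit of these 4. The fits were first tested on simulated data. Promoters are from RefSeq (GRCm38.p6), as the 250 bases before the start, leaving out the 50 bases after it, and windows were at hand for 5 of the 7 genes.

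Named list genes were the up to 4 (3 for markers of other cells) with the largest differences among those called, or the 2 with the highest mean, and list genes named beyond these were chosen after their values were seen. The 7 genes and the lists were chosen with earlier results of these data known. Alternatives changed the block, the arrays fitted, the stage, the normalization, a filter on dim probe sets, the variance model, the threshold and the probe sets tested, and left out each array. The fits that left out an array had no block.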

Additional observations from a re-analysis of the deposited data

How the results depend on the processing

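The calls of *Hbb-y*, *Hba-x* and *Hbb-bh1* in sorted neurons held in all alternatives run against both domains. Against the mdDA domain 5 of the 7 genes were called, and 3 to 5 when 1 array was left out; against the lateral domain it was 5, 7 when probe sets with 1 symbol alone were tested, and 5 to 6 with 1 array left out. Between the domains 1 gene in place of 0 was called when probe sets with 1 symbol alone were tested. Some differences that did not pass changed sign. For *Epor*, sorted minus mdDA domain was 0.017 with E14.5 neurons alone, 0.080 after repeated quantile normalization, 0.078 after centring and -0.32 to 0.083 with 1 array left out (lowest without mdDA domain replicate 2, highest without replicate 1), and for *Klf1* it was 0.012 and 0.0036 under the same normalization and centring. *Hbb-bh1* was 0.13 in mdDA minus lateral domain without lateral replicate 2. In E14.5 minus E13.5, leaving out 1 array gave -0.14 to 0.073 for *Hbb-y*, -0.25 to 0.35 for *Hba-x* and -0.055 to 0.29 for *Alas2*.

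Over all probe sets, 931 were called between the domains, against 1434 with no replicate block, 1412 with a filter on dim probe sets, 1646 with a trended robust variance, 227 at a false discovery rate of 5%, 2502 among probe sets with 1 symbol and 15 to 170 with 1 array left out. Sorted neurons differed from the mdDA domain in 6532 probe sets, against 3935 at 5% and 2037 to 6505 with 1 array left out, and from the lateral domain in 9198, against 4695 to 9162. Between the stages 0 were called, 20 with all 8 arrays fitted, and 2156 had an unadjusted p under 0.05 in limma. Centring moved the share of higher among called probe sets from 46.4% to 75.8% against the mdDA domain and from 44.1% to 71.1% against the lateral domain. Same-numbered arrays of different groups did not deviate together (correlations -0.037 to 0.013), and with the replicate block 5625, 8473 and 0 probe sets were called in sorted neurons against the mdDA domain, against the lateral domain and between stages, while the counts of the 7 genes stayed 5, 5 and 0. No gene of the 7 had a second probe set to try. The cause of these changes was not tested.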
